A study of Homo sapiens with 12 samples.

Results

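The early response to BRG1 depletion was examined in LNCaP cells 72 h after a single siRNA transfection, in 6 of the 12 RNA-seq samples of the series. LNCaP is an androgen-responsive cell line from a lymph node metastasis of prostate cancer, and BRG1 is the product of SMARCA4. The 2 control samples received a non-targeting siRNA pool (si-NT) and the 4 BRG1 depleted samples received 1 of 2 siRNAs against SMARCA4, with 2 samples for each siRNA, all transfected with DharmaFECT 2 in medium with serum. The remaining 6 samples were collected at 144 h, after a second round of transfection, and enter here through the shared estimate of the spread and 1 comparison of time points. The siRNAs are called 2 and 3 after the columns of the deposited table, because the labels number them differently. For 1 of the 4 depleted samples the labels give both siRNA numbers, which leaves the BRG1 depleted group as it is. Nothing states that the 2 samples of a kind came from separate cultures, so p-values measure the spread between these samples, which may be technical.

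BRG1 is the ATPase of SWI/SNF complexes, which use ATP to slide or evict nucleosomes and so change which promoters and enhancers are open to transcription factors. In prostate cells these complexes work at sites bound by FOXA1, a pioneer factor of the luminal lineage. Loss of the ATPase can lower genes that need open chromatin and raise others.

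The values are TPM, read counts scaled for gene length and library total. They keep no read depth, so precision was judged from replicates alone. Fold changes are differences of log2(TPM + 1), on which low genes change less than in TPM. The number of genes at 1 TPM or more was 14753 to 15355 per library, and the ERCC spike-ins added to the RNA made up 1.03% to 1.10% of TPM in si-NT cells and 1.12% to 1.34% in BRG1 depleted cells. All 10 LNCaP and luminal prostate markers were expressed, with a summed level of 2590 to 2700 TPM in si-NT cells and 1990 to 2920 TPM in BRG1 depleted cells. No basal, endothelial or leukocyte marker reached 1 TPM, and TP63, PTPRC and CD3E were at 0 in all 6 libraries, while 2 of 8 fibroblast and smooth muscle markers did, with sums of 7.98 to 9.41 TPM and 3.58 to 9.73 TPM. In a principal component analysis of the 6 libraries the first component (29.7% of the variance) did not separate the groups, as the si-NT libraries lay at -29.4 and 20.4 on it and the depleted libraries between -16.0 and 33.0. The second component (25.1%) did, with the si-NT libraries at 23.9 and 32.6 and all depleted libraries between -18.5 and -8.53. On the first component si-NT replicate 1, siRNA 2 replicate 1 and siRNA 3 replicate 2 were negative and the other libraries positive. What the libraries on each side share was not tested, and the main fit does not model it.

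SMARCA4 stood at 97.0 and 73.4 TPM in si-NT cells, at 21.7 and 19.02 TPM with siRNA 2, and at 17.5 and 19.1 TPM with siRNA 3. Every depleted library lay far below both controls, and the mean fell by 77.3% (log2 fold change -2.07 ± 0.16, SE, limma adjusted p = 0.000538). In bulk RNA, fewer cells with a transcript and less of it per cell cannot be told apart. Across 16337 tested genes, 91 were lower (0.557% of genes) and 184 were higher (1.13%) in BRG1 depleted cells at an adjusted p under 0.05, which is what "fell" and "rose" mean below. The falls were larger than the rises. Their median log2 fold change was -0.98, with quartiles of -1.34 and -0.81, against 0.69 for the rises, with quartiles of 0.56 and 0.90. Of the genes called, 45 falls and 33 rises exceeded 1 on the log2 scale. In each of the 275 genes all 4 depleted libraries lay on the same side of both controls. As the genes were called on these same libraries, this separation is largely built in. Among all genes 6.93% had every depleted library below and 16.3% every depleted library above. The log2 fold change was under 0 for 39.5% of all genes, and its median was 0.06.

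**Figure D1:**
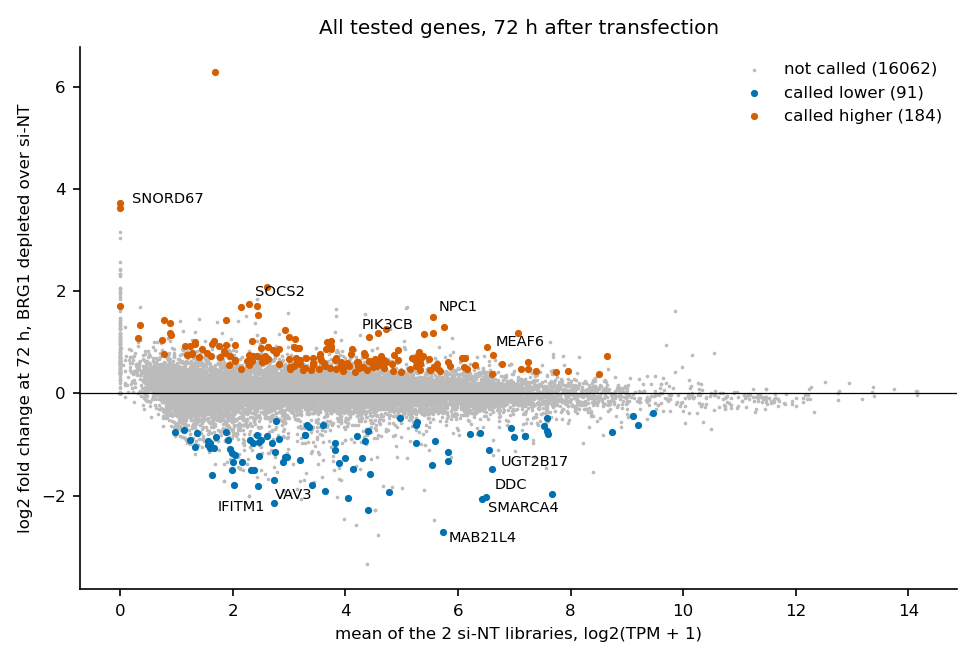
Each point is 1 of 16337 genes, with the mean si-NT level in log2(TPM + 1) on the x axis and the log2 fold change of BRG1 depleted over si-NT cells at 72 h on the y axis. The 91 genes called lower are blue and reach further from 0 than most of the 184 called higher, in orange, except for very short RNAs such as SNORD67 at the top left.

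The balance of falls and rises depended on the scaling. Median-of-ratios size factors gave 141 falls and 141 rises, quantile normalisation 131 and 157, and scaling to the ERCC spike-ins, which moved the median of all genes from 0.06 to -0.11, gave 24 and 8. With si-NT replicate 2 left out the counts were 15 and 24, with si-NT replicate 1 left out 40 and 42, and with the 6 libraries of 72 h fitted alone 8 and 10. Of 54 named genes that were called, 14 stayed called in all 6 fits with a library of 72 h left out. These were SMARCA4, IFITM1, DDC, VAV3, FGF21, LINC01133, TBX10, PCAT1, SOCS2, NPC1, PIK3CB, MEAF6, SNORD67 and the pseudogene ENSG00000216775. Of these, SOCS2, NPC1, PIK3CB and MEAF6 lost their call with ERCC scaling. Under every alternative that tested them 6 stayed called, SMARCA4, IFITM1, DDC, VAV3, FGF21 and ENSG00000216775.

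Of the largest falls after SMARCA4, most were of protein-coding genes. MAB21L4 (chromosome 2, 241825465 to 241836306, reverse strand, GRCh37) fell the most. Its level was 67.7 and 36.9 TPM in si-NT cells, 6.33 and 10.4 TPM with siRNA 2, and 8.05 and 3.77 TPM with siRNA 3. The depleted libraries lay well below both controls, which themselves differed widely (log2 fold change -2.72 ± 0.40, SE, adjusted p = 0.0091), and the call was lost without si-NT replicate 1. TM4SF1, a surface protein abundant in many carcinomas, fell from 26.8 and 13.4 TPM to 1.88, 2.39, 5.13 and 3.66 TPM (log2 fold change -2.29 ± 0.32, adjusted p = 0.00596).

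DDC encodes the decarboxylase that makes dopamine and serotonin. It was at 78.9 and 99.3 TPM in si-NT cells and at 20.6, 22.4, 22.6 and 19.1 TPM in BRG1 depleted cells, a narrow range across both siRNAs (log2 fold change -2.02 ± 0.22, adjusted p = 0.00175). GCG, the precursor of glucagon, fell from 20.1 and 32.7 TPM to between 5.45 and 6.92 TPM (log2 fold change -1.94). FGF21, a secreted metabolic hormone, was low in si-NT cells at 2.76 and 3.34 TPM and lay at 0.15, 0.24, 0.26 and 0 TPM in depleted cells. IFITM1, an interferon-induced membrane protein that limits virus entry, fell from 4.88 and 6.41 TPM to between 0.32 and 0.74 TPM, and its mean fell by 91.3%.

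The other large falls were MYBPC1 (a myosin-binding protein, -2.05), RGS1 (a brake on G protein signalling, -1.82), LINC01133 (a long non-coding RNA, -1.79), TBX10 (a T-box transcription factor, -1.70), SLPI (a secreted protease inhibitor, -1.57) and AGXT (a peroxisomal aminotransferase, -1.51), beside RNU1-85P, a U1 pseudogene at 1.45 and 2.76 TPM in si-NT cells that was listed at 0 in all depleted libraries. RGS1, RNU1-85P and SLPI were called in 0, 0 and 1 of the 6 fits with a library left out. Among further falls, chosen here after their values were seen, were HGD of tyrosine breakdown (-1.40), ASS1 of arginine synthesis (-1.11), the coagulation inhibitor TFPI (-1.33), the cadherin CDH26 (-1.36) and the transcriptional repressor BCL6 (-0.97). TFPI, for example, was at 50.0 and 61.0 TPM in si-NT cells and at 18.2 to 26.1 TPM in BRG1 depleted cells, with no overlap.

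**Figure D2:**
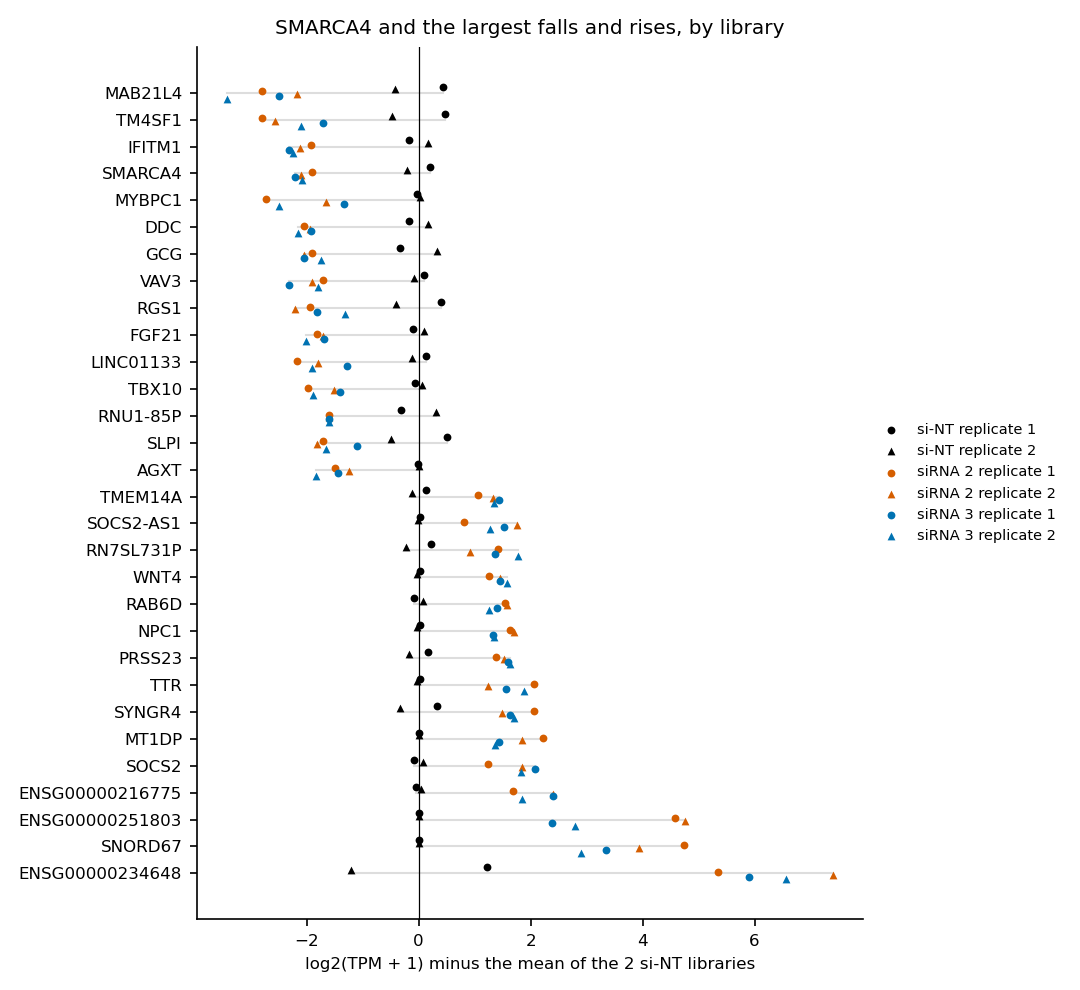
Each row is a gene and each point 1 library, placed by its log2(TPM + 1) minus the mean of the 2 si-NT libraries. Black marks si-NT, orange siRNA 2 and blue siRNA 3, with circles for replicate 1 and triangles for replicate 2. SMARCA4 and 14 of the largest falls lie to the left and the 15 largest rises to the right. In every row the coloured points stay on 1 side of both black points, which the choice of genes other than SMARCA4 required.

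VAV3, KLK2 and PCAT1 are genes that the study singles out. VAV3 is a guanine nucleotide exchange factor that activates small GTPases. It was at 12.3 and 10.7 TPM in si-NT cells, at 2.84 and 2.33 TPM with siRNA 2 and at 1.52 and 2.61 TPM with siRNA 3 (log2 fold change -1.92 ± 0.21, adjusted p = 0.00191), so the depleted libraries did not come near the controls. PCAT1, a prostate cancer long non-coding RNA, fell from 3.85 and 4.14 TPM to 0.49, 0.69, 1.12 and 0.81 TPM (log2 fold change -1.50 ± 0.18, adjusted p = 0.0029). KLK2, an androgen-driven kallikrein protease, behaved differently among the depleted libraries. Against 339 and 333 TPM in si-NT cells it stood at 58.2 and 162 TPM with siRNA 2 and at 223 and 84.4 TPM with siRNA 3. All 4 values were below both controls, but they spread widely and the change did not pass the test (log2 fold change -1.53 ± 0.48, adjusted p = 0.151). The study used edgeR on normalised reads and counts KLK2 among the genes lower at both times, so the tests differ for this gene.

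The androgen response list, genes that androgens switch on, held members on both sides at 72 h. Of 74 tested members none was called, while 10 lower and 10 higher members had an unadjusted p under 0.05. The median log2 fold change was 0.04, and 12 members had all depleted libraries below the controls, where 6.93% of all genes did, and 17 all above, where 16.3% did. KLK3, which encodes PSA, was at 582 and 442 TPM in si-NT cells and at 241, 525, 575 and 292 TPM in depleted cells, overlapping the controls. SLC45A3, encoding prostein, had the largest positive value, from 61.1 and 38.0 TPM to 68.9, 66.0, 122 and 124 TPM (log2 fold change 0.90 ± 0.29, adjusted p = 0.169). FOXA1 overlapped too, at 171 and 183 TPM against 177 to 240 TPM. Of the 14 tested luminal transcription factors 1 rose, SOX9, a regulator of epithelial progenitors, from 6.61 and 9.50 TPM to between 13.1 and 19.5 TPM (log2 fold change 0.88 ± 0.17, adjusted p = 0.029). Among 19 tested secreted and surface markers of prostate, TM4SF1, PCAT1 and PSCA fell and the median was -0.30.

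The largest rises were led by very short or pseudogene RNAs, described further down, and then by SOCS2, which feeds back on cytokine and growth hormone receptors to limit JAK and STAT signalling. SOCS2 (chromosome 12, 93963590 to 93977263, forward strand) was at 3.63 and 4.14 TPM in si-NT cells, at 10.6 and 16.5 TPM with siRNA 2 and at 19.7 and 16.3 TPM with siRNA 3, so that the lowest depleted library was well above both controls (log2 fold change 1.75 ± 0.20, adjusted p = 0.0029). Its antisense neighbour SOCS2-AS1 (93935798 to 93965544, reverse strand) rose from 0.29 and 0.26 TPM to between 1.24 and 3.33 TPM (log2 fold change 1.34 ± 0.26, adjusted p = 0.0318). These genes overlap, and since the sources used here do not state that counting used strand, reads in the overlap cannot be assigned to either gene with certainty.

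NPC1, the lysosomal exporter of cholesterol, rose from 46.8 and 45.2 TPM to 144 and 152 TPM with siRNA 2 and to 117 and 118 TPM with siRNA 3 (log2 fold change 1.50 ± 0.14, adjusted p = 0.000949). Replicates were tight and both siRNAs lay far above the controls. PIK3CB, the beta catalytic subunit of PI3 kinase, rose from 37.1 and 44.7 TPM to 81.9, 106, 88.7 and 93.2 TPM (log2 fold change 1.16 ± 0.12, adjusted p = 0.00158). WNT4, a secreted WNT ligand, rose from 0.75 and 0.67 TPM to between 3.08 and 4.09 TPM (log2 fold change 1.44), low in all libraries but without overlap. TTR, the thyroxine carrier transthyretin (1.69), SYNGR4, a synaptogyrin (1.72), the serine protease PRSS23 (1.53) and TMEM14A (1.29) completed the larger protein-coding rises. RAB6D rose too (1.44), together with its near-identical copy RAB6C (0.83), and how the counting divided reads between them is uncertain.

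MEAF6, a subunit of histone acetyltransferase complexes, had 1 of the smallest standard errors. It went from 89.1 and 92.4 TPM to 162 and 182 TPM with siRNA 2 and to 179 and 163 TPM with siRNA 3 (log2 fold change 0.91 ± 0.08, adjusted p = 0.000538). The next rises were chosen after their values were seen. SYTL2, a synaptotagmin-like protein of vesicle transport, went from 35.8 and 55.8 TPM to between 87.0 and 126 TPM (log2 fold change 1.19 ± 0.20, adjusted p = 0.0164). RAB27B (1.00), RAB3B (0.86) and RAB3D (0.66), small GTPases of secretory vesicles, and the lysosomal proteins SIDT2 (1.10), LIPA (0.43), FUCA1 (0.43) and GALNS (0.57) rose as well. No list of such genes was tested.

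Several of the largest rises were RNAs so short that 1 read weighs heavily in TPM. SNORD67, a small nucleolar RNA of 111 bases, was listed at 0 TPM in both si-NT libraries and at 25.6, 14.3, 9.21 and 6.45 TPM in depleted libraries. The Y RNA gene ENSG00000251803, of 113 bases, was listed at 0 in both controls and at 22.9, 25.9, 4.22 and 5.91 TPM. ENSG00000234648, a processed pseudogene of 158 bases, was at 4.39 and 0 TPM in controls and between 93.8 and 389 TPM in depleted cells, with an adjusted p of 0.0492. RN7SL731P and the metallothionein pseudogene MT1DP rose to at most 5.26 and 3.68 TPM. ENSG00000234648, MT1DP and RN7SL731P were called in 0, 0 and 1 of the 6 fits with a library left out.

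The clearest shift of a function list was that of ATF4 targets, which take up amino acids, make serine and glycine, charge tRNAs and respond to amino acid shortage. Promoter sequences are shown for 2 members because they carry the letters TGATGCAA (or TTGCATCA on the opposite strand), the core of the composite element bound by ATF4 with a C/EBP partner. Each is the 250 bases before the RefSeq start site in GRCh38.p14, from chr19:48755274-48755523 for FGF21 and chr15:40953221-40953470 for CHAC1, both on the forward strand, with the match in capitals.
FGF21: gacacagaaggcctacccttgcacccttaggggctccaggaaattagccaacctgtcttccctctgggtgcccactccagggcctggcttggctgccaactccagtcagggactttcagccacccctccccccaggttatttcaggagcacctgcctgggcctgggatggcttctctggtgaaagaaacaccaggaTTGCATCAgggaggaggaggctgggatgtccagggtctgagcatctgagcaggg
CHAC1: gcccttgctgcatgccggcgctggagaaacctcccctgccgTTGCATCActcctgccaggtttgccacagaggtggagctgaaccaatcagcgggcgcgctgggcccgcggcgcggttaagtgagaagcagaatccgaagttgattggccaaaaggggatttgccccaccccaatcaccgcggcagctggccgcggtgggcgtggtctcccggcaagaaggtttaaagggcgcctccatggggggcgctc
The match began 54 bases before the start site in FGF21 and 209 bases before it in CHAC1, which encodes a glutathione-degrading enzyme. Of 38 tested members with a sequence, 4 held it (10.5%), against 40 of 10480 tested genes with a sequence (0.382%) and 224 of all 27305 promoters (0.82%). The other 2 were IARS1 and AARS1, tRNA synthetases with log2 fold changes of -0.18 each. A match describes the letters and is not evidence of binding. As the list was made of genes held to be ATF4 targets, its higher share is partly built in and does not bear on the change at 72 h.

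All 46 tested members of the ATF4 list, of 47 in the table, had a log2 fold change under 0, with a median of -0.47 against 0.06 for all genes, and 22 had every depleted library below both controls, against 6.93% of all genes. As lists and members were chosen with earlier results of these data known, these values are a description and not an independent test. By the test 4 fell, FGF21 (-1.80), the AP-1 repressor JDP2 (-0.94), the amino acid transporter chain SLC3A2 (-0.80) and SHMT2 (-0.75), which makes glycine from serine in mitochondria. JDP2, SLC3A2 and SHMT2 were called in 2, 1 and 2 of the 6 fits with a library left out and lost their call with ERCC scaling. FGF21 kept its call in all of these fits. SHMT2 was at 370 and 482 TPM in si-NT cells and at 228, 250, 290 and 239 TPM in depleted cells (adjusted p = 0.0262). ATF4 itself was at 446 and 500 TPM in si-NT cells and at 290, 374, 370 and 251 TPM in depleted cells, below both controls in each, with an adjusted p of 0.0862. DDIT3, encoding CHOP, had the widest control range, 84.6 and 292 TPM, against 38.2 to 81.6 TPM in depleted cells (adjusted p = 0.124). By library the list's median stood at -0.66 in siRNA 2 replicate 1, -0.24 in siRNA 2 replicate 2, -0.20 in siRNA 3 replicate 1 and -0.73 in siRNA 3 replicate 2, relative to the mean of the controls, which themselves stood at -0.11 and 0.11. The list thus lay below both controls in all 4 libraries and further in 1 library of each siRNA. It was negative in 46 of 46 members under all 3 other scalings, and in 43 members with si-NT replicate 2 left out.

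**Figure D3:**
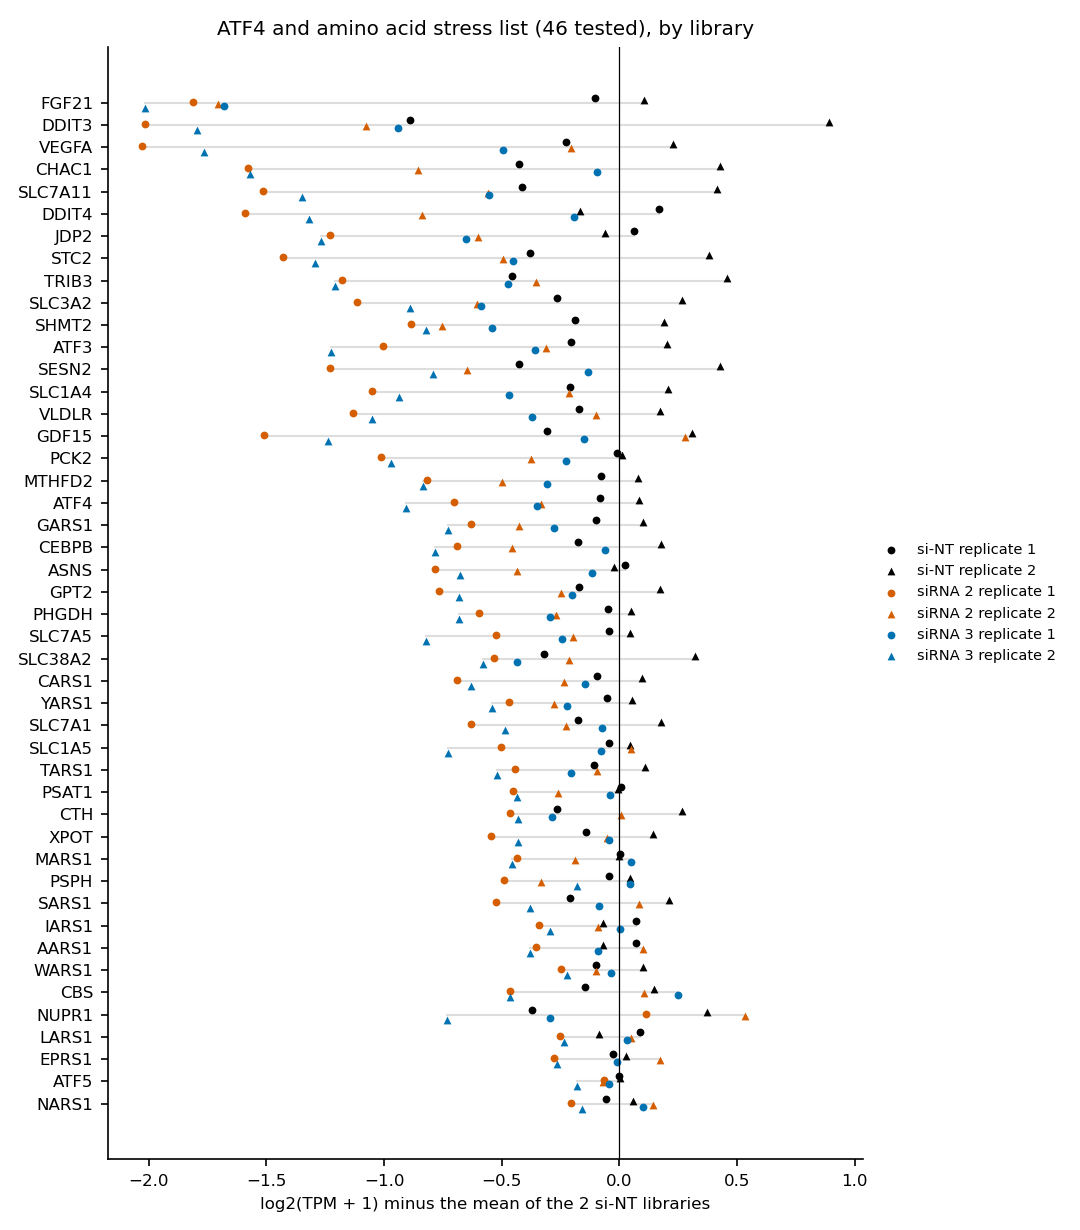
Rows are the 46 tested genes of the ATF4 list, sorted by log2 fold change, and points are the 6 libraries, as log2(TPM + 1) minus the mean of the 2 si-NT libraries, with colours and shapes by siRNA and replicate. The list medians of siRNA 2 replicate 1 and siRNA 3 replicate 2 are the lowest, at -0.66 and -0.73, and the black si-NT points spread widely for DDIT3, at 84.6 and 292 TPM.

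Glycolysis and hypoxia genes, many of them targets of HIF1, had a median of -0.37 over 40 tested members, 35 of them under 0, and none was called. Here the libraries disagreed. The median by library was -0.66 and -0.53 in siRNA 2 replicate 1 and siRNA 3 replicate 2, -0.20 in siRNA 3 replicate 1, and 0.04, equal to the higher control, in siRNA 2 replicate 2. CA9, a carbonic anhydrase induced by hypoxia, was at 4.84 and 6.99 TPM in si-NT cells, at 0.04 and 3.68 TPM with siRNA 2 and at 2.55 and 0.79 TPM with siRNA 3 (adjusted p = 0.186). LDHA, which makes lactate, was at 1296 and 1303 TPM in controls and at 560, 1263, 976 and 841 TPM in depleted cells. The highest depleted value, in siRNA 2 replicate 2, was close to the controls. The libraries with the lowest medians, siRNA 2 replicate 1 and siRNA 3 replicate 2, also had the lowest ATF4 list medians, the lowest KLK2 (58.2 and 84.4 TPM) and the lowest KLK3 (241 and 292 TPM) of the 4. What these libraries share was not tested.

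The endoplasmic reticulum folding list, chaperones and enzymes of secretory protein folding, had a median of -0.28 over 33 tested members, of which 2 fell. HSP90B1, the chaperone GRP94, went from 504 and 675 TPM to 377, 400, 392 and 347 TPM (log2 fold change -0.62 ± 0.11, adjusted p = 0.0261). MANF went from 111 and 178 TPM to between 68.3 and 84.2 TPM (log2 fold change -0.83, adjusted p = 0.0335). The controls differed by more than the change, since si-NT replicate 2 exceeded si-NT replicate 1 by a median of 0.52 over the list. HSPA5, encoding the chaperone BiP, was at 216 and 547 TPM in the controls and at 182 to 212 TPM in depleted cells. HSP90B1 stayed called in 3 and MANF in 1 of the 6 fits with a library left out, and both calls were lost without si-NT replicate 2, siRNA 2 replicate 1 or siRNA 3 replicate 2.

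Steroid glucuronidation and conversion genes had the lowest median of all function lists, -0.58 over 20 tested members, with 10 members below both controls in every depleted library, against 6.93% of all genes. UGT2B enzymes attach glucuronic acid to androgens and so inactivate them. UGT2B17 was at 100.3 and 92.8 TPM in si-NT cells, at 33.5 and 28.2 TPM with siRNA 2 and at 37.1 and 38.0 TPM with siRNA 3 (log2 fold change -1.48 ± 0.21, adjusted p = 0.00621). UGT2B4 and UGT2B7, expressed at only 1.63 to 2.37 TPM in controls, fell by 1.01 and 1.07 on the log2 scale, and CYP11A1, which starts steroid synthesis by cleaving cholesterol, fell by 1.35. UGT2B15 was at 45.1 and 38.2 TPM in controls and at 18.5, 13.6, 25.9 and 24.3 TPM in depleted cells, without overlap but not past the test (adjusted p = 0.222). UGT2B genes are close copies of each other, so counts of single members are uncertain. In the opposite direction SULT2B1, which sulphates cholesterol and steroids, rose from 23.8 and 24.6 TPM to between 37.2 and 43.0 TPM (log2 fold change 0.68 ± 0.12, adjusted p = 0.0191), and HSD17B4 of peroxisomal beta-oxidation rose by 0.42. HSD17B4 was called in 0 of the 6 fits with a library left out and lost its call with ERCC scaling.

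In the signalling lists 0 to 2 members were called. SOCS2 was the 1 gene called of 30 in the cytokine receptor, STAT and SOCS list (median 0.05). EGF, an ERBB1 ligand, fell from 4.58 and 4.42 TPM to 1.04, 1.72, 1.66 and 1.10 TPM (log2 fold change -1.22 ± 0.20, adjusted p = 0.0156), as the 1 called of 9 ERBB receptors and ligands, whose median was -0.20 and stood at -0.06 with siRNA 2 and -0.34 with siRNA 3. Of 31 IGF and insulin signalling genes, PIK3CB rose, and IGF2R, the receptor that clears IGF2, rose from 49.5 and 64.3 TPM to between 76.6 and 90.6 TPM (log2 fold change 0.53 ± 0.11, adjusted p = 0.0343). IGF2R was called in 1 of the 6 fits with a library left out and lost its call with ERCC scaling. WNT4 was the 1 called of 33 WNT genes. None was called of 39 TGF-beta and BMP genes, 26 NOTCH genes or 12 NF-kB genes, and ID2, a target of BMP signalling, had wide values of 69.7, 27.5, 56.7 and 107 TPM in depleted cells against 22.2 and 16.5 TPM (log2 fold change 1.56 ± 0.49, adjusted p = 0.154).

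Genes of cell division had no call at 72 h in the replication, mitosis, CDK inhibitor and DNA repair lists. Over 77 mitosis genes the median was -0.13 and 68 were under 0, and over 51 replication genes it was -0.09. These lists differed more between the controls than between the groups. si-NT replicate 2 was lower than si-NT replicate 1 by a median of 0.65 over the mitosis list and 0.72 over the replication list. CDK1, the mitotic kinase, was at 330 and 131 TPM in the controls and at 399, 244, 378 and 389 TPM in depleted cells (adjusted p = 0.28). Without si-NT replicate 1 it was called (log2 fold change 1.39, adjusted p = 0.0379), and without si-NT replicate 2 its value was 0.07 (adjusted p = 0.935). Among 27 G1 genes MYC, the growth-promoting transcription factor, fell from 192 and 191 TPM to 128, 131, 154 and 134 TPM (log2 fold change -0.49 ± 0.09, adjusted p = 0.0292). MYC was called in 1 of the 6 fits with a library left out and lost its call with ERCC scaling. In the 28 genes of nucleotide supply the 1 fall was SHMT2. At 144 h the medians were -0.87 for mitosis, with 69 of 77 genes lower by the test, and -0.73 for replication, with 33 of 51, against 10.8% of all genes lower and 13.6% higher at that time.

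**Figure D4:**
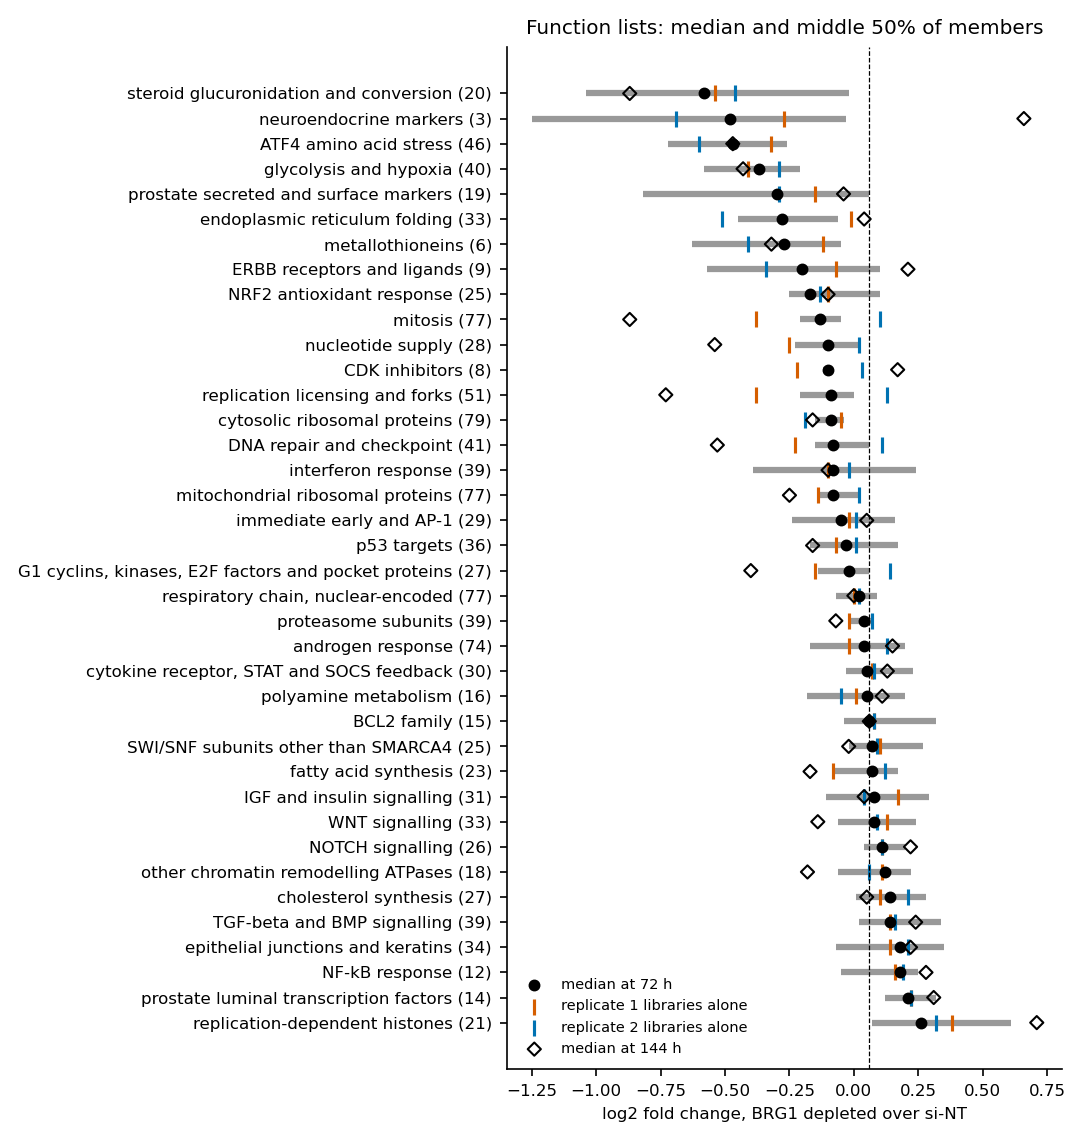
For 38 function lists, with the number of tested genes in brackets, the black point is the median log2 fold change at 72 h, the grey bar the range between the quartiles of the members, the orange and blue ticks the medians from replicate 1 or replicate 2 libraries alone, and the open diamond the median at 144 h. The dashed line is the median of all genes at 72 h, 0.06. Steroid, ATF4 and glycolysis lists lie left of it with both ticks, whereas the ticks of the mitosis and replication lists fall on opposite sides.

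None of 25 tested SWI/SNF subunit genes was called beside SMARCA4, with a median of 0.07. SMARCA2, the gene of BRM, the other ATPase of these complexes, was at 23.7 and 22.8 TPM in si-NT cells and at 16.8 to 20.9 TPM in depleted cells (log2 fold change -0.25 ± 0.13, adjusted p = 0.435). The most negative subunit was BCL7B (-0.74, adjusted p = 0.272), at 24.3 and 26.6 TPM in controls, 10.4 and 12.1 TPM with siRNA 2 and 18.6 and 20.5 TPM with siRNA 3. It was called with siRNA 2 alone (-1.11, adjusted p = 0.00743) and not with siRNA 3 (-0.36, adjusted p = 0.294), and in the fit of 6 groups the mean of both siRNAs was called (adjusted p = 0.0204). Of 18 other remodelling ATPases none was called. In 34 junction and keratin genes, CGN, which encodes the tight junction protein cingulin, rose from 23.7 and 22.3 TPM to 59.98, 61.5, 48.4 and 44.6 TPM (log2 fold change 1.18 ± 0.18, adjusted p = 0.0106), and the list's median was 0.18. Of 39 interferon response genes IFITM1 and BST2 fell and HERC6 rose, and the median was -0.08. BST2 was called in 0 and HERC6 in 1 of the 6 fits with a library left out, and both lost their call with ERCC scaling. SC5D of cholesterol synthesis rose from 34.4 TPM in both controls to between 46.8 and 49.7 TPM. Of the p53 targets and the BCL2 family PMAIP1, encoding the death-promoting protein NOXA, fell from 5.19 and 5.02 TPM to between 1.80 and 3.26 TPM (log2 fold change -0.83, adjusted p = 0.0382). PMAIP1 was called in 1 of the 6 fits with a library left out and lost its call with ERCC scaling. Of the neuroendocrine markers 3 were expressed enough to test, and the 1 that fell was DDC.

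Housekeeping lists moved little. No gene was called among 79 cytosolic ribosomal proteins, 77 mitochondrial ribosomal proteins, 77 nuclear-encoded respiratory chain genes or 39 proteasome subunits, with medians of -0.09, -0.08, 0.02 and 0.04. For the cytosolic ribosomal proteins 74 of 79 members were under 0, but after quantile normalisation the list stood 0.02 below the median of all genes in place of 0.15. None was called either among fatty acid synthesis, NRF2, metallothionein, polyamine and replication-dependent histone genes. The histone list had the highest median, 0.26 over 21 members, and in a poly(A)-selected library such mRNAs, which lack a poly(A) tail, are measured poorly. In all, 20 of 39 function lists held no called gene, and 30 of the 275 called genes (10.9%) belonged to any list, as did 1241 of all tested genes (7.6%).

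Both siRNAs were then taken singly against the same 2 controls. siRNA 2 gave 103 falls (0.63% of genes) and 153 rises (0.937%), and siRNA 3 gave 37 falls (0.226%) and 70 rises (0.428%). These comparisons share their controls, so likeness between them is partly built in. For the 91 falls the median log2 fold change was -1.05 with siRNA 2 and -0.98 with siRNA 3, and for the 184 rises 0.69 and 0.67. A direct contrast of siRNA 3 with siRNA 2, which does not involve the controls, called 23 genes (0.141% of genes), 3 lower and 20 higher with siRNA 3, and 1361 genes had an unadjusted p under 0.05. Of the 275 genes called for both siRNAs together, 1 was among the 23, the Y RNA gene ENSG00000251803. In that fit a difference between the siRNAs counts as spread and hinders a call, so a small overlap is partly built in.

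Several genes that differed between the siRNAs were near the control level with 1 siRNA and lower with the other. GLO1, which detoxifies methylglyoxal, was at 191 and 152 TPM in si-NT cells, at 56.7 and 58.0 TPM with siRNA 2 and at 206 and 216 TPM with siRNA 3 (siRNA 3 minus siRNA 2 1.86 ± 0.12 on the log2 scale, adjusted p = 0.00022). RAB5C of early endosomes, RPN1 of N-glycosylation, KIFBP and C8orf33 showed the same arrangement, with 61.8 and 69.0 TPM for RAB5C under siRNA 2 against 142 to 151 TPM in si-NT cells. BOLA2, a protein of iron-sulphur cluster handling with a near-identical copy, was lower with siRNA 3, at 2.69 and 2.01 TPM against 17.9 to 31.1 TPM in the other 4 libraries. RPS20 was also lower with siRNA 3, at 690 and 524 TPM against 1246 to 1490 TPM elsewhere. For SMARCA4 the same contrast gave -0.14 on the log2 scale, with a 95% confidence interval of -0.57 to 0.28 (adjusted p = 0.889).

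**Figure D5:**
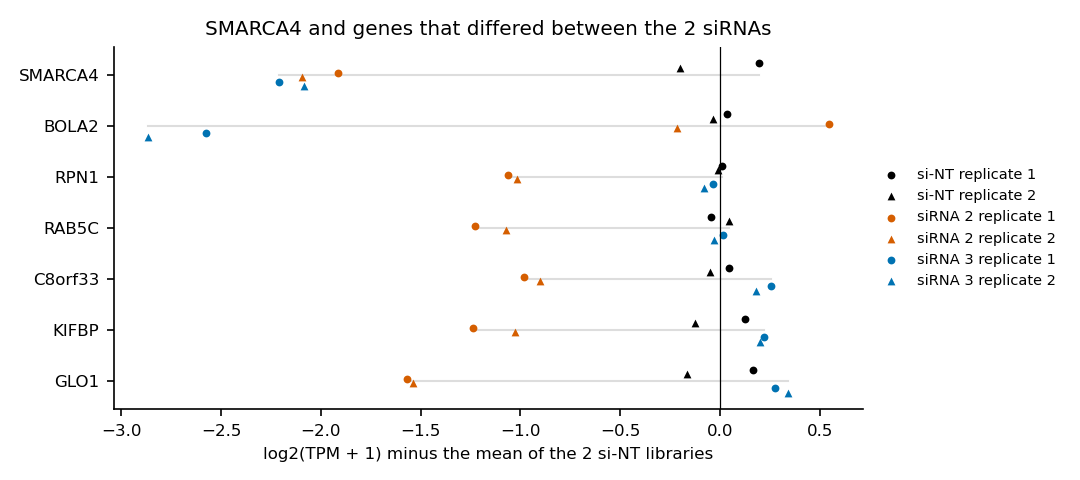
Points are the 6 libraries of SMARCA4 and of the 6 longer genes named for a difference between the siRNAs, as log2(TPM + 1) minus the mean of the 2 si-NT libraries. SMARCA4 is low with both siRNAs, whereas GLO1, KIFBP, C8orf33, RAB5C and RPN1 are low with siRNA 2 (orange) and BOLA2 with siRNA 3 (blue).

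The p53 target list differed in sign between the siRNAs, with a median of -0.27 for siRNA 2 and 0.27 for siRNA 3 over 36 tested genes. CDKN1A, the CDK inhibitor p21, was at 73.1 and 71.0 TPM in si-NT cells, at 34.1 and 45.0 TPM with siRNA 2 and at 119 and 106 TPM with siRNA 3. FDXR, AEN and SPATA18 followed the same order and, with CDKN1A, were among the 23 genes that differed. FDXR, for example, was at 20.4 and 17.9 TPM in si-NT cells, at 16.6 and 16.4 TPM with siRNA 2 and at 33.2 and 33.1 TPM with siRNA 3. Over all 4 depleted libraries the log2 fold change of CDKN1A was -0.11 ± 0.54.

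The replicate numbers were also taken apart, with the 2 depleted libraries of a number set against the si-NT library of that number. These differences share no library with each other. Across 16337 genes, which are not independent replicates, they correlated at r = 0.19. The 91 falls had medians of -0.98 and -1.13 and the 184 rises 0.66 and 0.72, though these genes were chosen on the same libraries. Of lists, the ATF4 genes had medians of -0.32 and -0.60, the steroid genes -0.54 and -0.46, and the glycolysis genes -0.41 and -0.29. The folding list stood at -0.01 and -0.51, the mitosis list at -0.38 and 0.10, and the replication list at -0.38 and 0.13.

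Some called genes were neighbours on the chromosome. Counting lines with identical values once, 17 pairs of called genes lay within 100000 bases of each other, 13 in the same and 4 in opposite directions. AGXT and MAB21L4, among the largest falls, lie 5546 bases apart on chromosome 2 on opposite strands. AGXT was at 4.16 and 4.22 TPM in controls and at 0.85, 1.18, 0.91 and 0.45 TPM in depleted cells. On chromosome 1, MEAF6 and the non-coding ZC3H12A-DT rose by 0.91 and 1.06 on the log2 scale, and on chromosome 3 MRAS, CEP70 and PIK3CB rose by 0.70, 0.71 and 1.16. On chromosome 6 TMEM14A and the pseudogene ENSG00000216775, 4235 bases apart, rose with TRAM2, and on chromosome 18 NPC1 rose with ANKRD29 (0.53). In the opposite sense MYCL rose by 1.03 next to MFSD2A, which fell by 0.98. No share expected for such pairs was computed.

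By kind of gene, the 91 falls held 75 protein-coding genes and 11 long non-coding RNAs, and the 184 rises held 167 and 6. Among tested genes 73.9% were protein-coding and 9.5% long non-coding. The non-coding falls included LINC01133, PCAT1, DRAIC (-0.74), SNHG5 (-0.80) and ZFAS1 (-0.73), of which SNHG5 and ZFAS1 host small nucleolar RNAs. SNHG5, for example, was at 62.6 and 84.6 TPM in controls and at 36.6 to 47.3 TPM in depleted cells. Calls were spread over all levels of expression. With genes split into 5 equal groups by si-NT level, the lowest group held 13 falls and 25 rises, the next 29 and 42, and the highest 24 and 29. The median si-NT level was 8.95 TPM for falls and 11.7 TPM for rises, against 11.3 TPM for all genes.

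The early changes were compared with those at 144 h, with which they share no library. Both come from 1 fit and use the same estimate of each gene's spread. A gene with a small spread is thus called more easily at both times, and the overlap of calls is partly built in. Of the 91 falls 80 were also lower by the test at 144 h, with a median log2 fold change of -1.21, and of the 184 rises 168 were also higher, with a median of 0.94. Of all genes 10.8% were lower and 13.6% higher at that time. The difference between the changes was tested as an interaction and called 3 genes (0.0184% of genes), with 1943 at an unadjusted p under 0.05. MEAF6 changed by 0.91 at 72 h and by 1.93 at 144 h, a difference of -1.02 ± 0.11 (adjusted p = 0.00657). NBL1, a secreted BMP antagonist, changed by 0.73 and 3.22 (adjusted p of the difference 0.0145). SNORD67, listed at 0 in both si-NT libraries of 72 h, was the third. PSCA, a surface antigen, fell at 72 h from 8.16 and 9.21 TPM to between 3.68 and 5.28 TPM (log2 fold change -0.82) and had a value of 0.15 at 144 h, but the difference did not pass the test (adjusted p = 0.223). FGF21 (-0.53 at 144 h) and the folding chaperone MANF (-0.33) were not called at the later time.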

How the data were processed

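RNA-seq libraries of LNCaP cells were made by the authors with a stranded mRNA kit and ERCC spike-ins. Per the labels and the methods, reads were processed with Trim Galore 0.11.2 and FastQC, aligned to hg19 (GRCh37) with STAR 2.4.0j, counted with featureCounts and expressed as TPM, and the authors deposited TPM for 63568 genes and 92 spike-ins. Spike-ins included, the total per library was 999999 to 1000001.

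A gene was tested where 2 or more of the 12 libraries reached 1 TPM, which left 16337, analysed on log2(TPM + 1) with limma 3.58.1 in R 4.3.3 (lmFit, eBayes with trend, prior degrees of freedom 3.53) in 4 groups, and in 6 groups for single siRNAs. P-values were adjusted by Benjamini-Hochberg over all genes tested and called under 0.05. No count model was used. On simulated data for 16337 genes, 200 of them changed, a log2 change of 1 was recovered for 78% and of 2 for 96%. The simulated noise was independent between genes and libraries and held no difference shared by the genes of a library. Recovery in the real data may therefore be lower. Lists are described by counts and medians. Named genes were SMARCA4, the 15 largest falls and rises among called genes whose groups did not overlap, up to 4 called members of each list (or its extremes), up to 10 genes by the siRNA and time contrasts, up to 10 that changed sign at 144 h, and KLK2, VAV3 and PCAT1. Some genes and 1 list are not reported here. Members and lists were chosen with earlier results of these data known. Symbols and coordinates are from GENCODE release 44 lifted to GRCh37, which matched 87.6% of genes, and 1011 tested lines share all values with another line (PSCA and MANF among them). Promoters are from RefSeq (GRCh38.p14). Alternatives were other pseudocounts, filters, scalings and fits, a replicate block, and leaving out each library of 72 h. The labels do not say whether replicate numbers pair the samples, and the main fit did not pair them. Deviations of same-numbered libraries correlated at 0.30 for si-NT with siRNA 2 and at -0.20 and -0.23 for the other pairs. With so few libraries these values cannot decide it.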

Additional observations from a re-analysis of the deposited data

Results flagged for a closer look

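Genes that differed between the siRNAs at an adjusted p under 0.05 are listed as siRNA 3 minus siRNA 2 on the log2 scale. GLO1 differed by 1.86, RAB5C by 1.14, RPN1 by 0.98, C8orf33 by 1.16, KIFBP by 1.34 and BOLA2 by -2.89. The very short RNAs VTRNA1-2, SNORD83B and SNRPEP11 differed by 6.32, 5.15 and 2.95, as they were listed at 0 TPM in the si-NT and siRNA 2 libraries and at 6.59 to 92.9 TPM with siRNA 3, and the Y RNA gene ENSG00000251803 differed by -2.08.

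The change at 72 h minus that at 144 h passed the test of the difference for NBL1 (-2.49), MEAF6 (-1.02) and SNORD67 (7.35), a value that depends on the pseudocount because SNORD67 was listed at 0 in both si-NT libraries of 72 h.

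In 3 of 103 named genes examined, 1 depleted library stood apart from the other 3, where chance flags about 1 in 20. CDT1, which licenses replication origins, was at 17.7 TPM in siRNA 3 replicate 1 and at 12.8 to 13.2 TPM in the others. CDKN3 and CDK1 were lowest in siRNA 2 replicate 2, at 46.1 and 244 TPM, against 80.6 to 85.7 TPM and 378 to 399 TPM. The share of TPM from mitochondrial genes was highest in that library, 16.6% against 12.8% to 14.1% in the other 5, and its part in these values was not tested.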

How the results depend on the processing

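SMARCA4 stayed called under all 16 alternatives, with -1.88 to -2.27 when a library was left out. Counts of falls and rises ranged from 15 to 57 and from 24 to 114 when a library was left out, for siRNA 2 from 70 to 244, for siRNA 3 from 20 to 112, for the siRNA difference from 12 to 25 and for the time difference from 1 to 8. A lone si-NT library is assumed there to vary like the other groups. The falls (91) became 146 without a filter, 47 at a mean of at least 5 TPM, 141 with median-of-ratios, 24 with ERCC scaling, 8 with the libraries of 72 h alone and 45 beyond a log2 fold change of 1. The rises (184) became 8 with ERCC scaling, 10 with the libraries of 72 h alone and 33 beyond 1. Counts for siRNA 2 (256) became 163 without a filter, 43 with ERCC scaling, 405 with quantile normalisation, 155 without the trend and 12 with the libraries of 72 h alone; those for siRNA 3 (107) became 35 with ERCC scaling and 14 with the libraries of 72 h alone. The siRNA difference (23) became 15 and 13 under the same 2 settings, and the time difference (3) became 22 without a filter and 7 with median-of-ratios. The cause was not tested, except that the fit of 72 h has fewer samples.

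With a replicate block the counts were 58 falls, 121 rises, 131 for siRNA 2 and 50 for siRNA 3, and 7 of 104 named genes lost their call. The labels do not say that these numbers pair samples. A replicate block with the numbers of siRNA 3 crossed, chosen after seeing the data, gave 70 falls and 129 rises.

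Named genes kept their direction under every alternative except 4 small values. CDKN3 became 0.27 without si-NT replicate 1 and 0.00 without siRNA 2 replicate 2, in a range from -0.69 with a library left out, SLC30A1 became -0.08 and PSMB5 -0.02 with ERCC scaling, and RPS15 became -0.03 with median-of-ratios, -0.16 with ERCC scaling, -0.01 without si-NT replicate 1, and -0.03 without siRNA 3 replicate 1 or 2, in a range up to 0.15. ERCC scaling removed 29 calls of named genes and the fit of 72 h alone 39. With other scalings, list medians relative to all genes moved by at most 0.13, for cytosolic ribosomal proteins (from -0.15 to -0.02 with quantile normalisation), and by over 0.05 for 3 of 39 lists, while the ATF4 list went from -0.52 to between -0.48 and -0.55. With 1 library left out, 8 to 17 of 39 list medians moved by more than the spread between the controls, most without si-NT replicate 1 (17) and si-NT replicate 2 (15). TPM hold no read depth, so counting error cannot be given.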
